A study of Mus musculus with 61 samples.

Results

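Arc, Npas4, Homer1, Bdnf and Nptx2 are neuronal genes that are transcribed within minutes to hours of synaptic activity and whose products act at synapses or switch on genes that do. They were taken by symbol from the count table, 5 of 55401 gene identifiers. No cutoff on a measured value entered the choice, but earlier results of these data were known when it was made. The 5 genes were followed over 61 RNA libraries of sorted nuclei from nucleus accumbens tissue of mice, a region of the ventral striatum. All mice were male and carried a Cre-dependent eGFP::L10a transgene, a green fluorescent protein joined to a ribosomal protein, together with D1-Cre or D2-Cre, which drive recombination in cells that express the dopamine receptor gene Drd1 or Drd2. Nuclei were sorted from frozen bilateral punches by fluorescence. Each mouse had received saline (S) or morphine (M) daily for 15 days, then spent 30 days in the home cage, and was killed 1 h after a challenge injection of saline or morphine. The group name gives the history first and the challenge second, so that MS is a morphine history with a saline challenge. The libraries comprised 8 SS, 8 SM, 9 MS and 7 MM from D1 nuclei and 7 SS, 7 SM, 8 MS and 7 MM from D2 nuclei. The doses are not assigned to mice in the labels, and the ages are not given there. The labels do not say whether libraries came from single or pooled animals, so the p values below measure the spread between libraries.

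Synaptic activity raises calcium and cAMP in a neuron, and the kinases these activate phosphorylate transcription factors such as CREB that already sit at the promoters of immediate early genes. Npas4 encodes a transcription factor of the bHLH-PAS family that answers mainly to calcium influx and controls later genes, Bdnf among them. Arc, Homer1 and Nptx2 act on glutamate receptors: Arc protein helps to internalize AMPA receptors, the short Homer1a form competes with long Homer scaffolds for metabotropic receptors, and the secreted pentraxin Nptx2 clusters AMPA receptors. Bdnf encodes a secreted neurotrophin that signals through the receptor TrkB, and in the striatum much of the protein arrives in axons from the cortex.

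The promoter windows below are shown because CREB is a known regulator of Npas4, Homer1 and Bdnf. The RefSeq promoter table for GRCm38.p6 held 1 start for Npas4, 2 for Homer1 and 7 for Bdnf, and no entry for Arc or Nptx2. The 250 bases before each start were searched for the core of the cAMP response element, TGACG on either strand. Of all 32851 windows of this length in the table, 17.8% held the core, 3.90% held at least 2 copies and 0.688% held at least 3. A window with the core was found for each of the 3 genes, and these windows were chosen for that reason. The other 6 Bdnf windows and the other Homer1 window held 0 copies, so that 1 of 7 Bdnf windows is near the share among all windows. For Homer1 (chr13:93303507-93303756, plus strand) and for the Bdnf start at 109692436 (chr2:109692186-109692435, plus strand) the whole window is printed, and for Npas4 (chr19:4990128-4990157, minus strand) only the 30 bases around its copies, 5′ to 3′ with the core or its reverse complement in capitals.
Homer1: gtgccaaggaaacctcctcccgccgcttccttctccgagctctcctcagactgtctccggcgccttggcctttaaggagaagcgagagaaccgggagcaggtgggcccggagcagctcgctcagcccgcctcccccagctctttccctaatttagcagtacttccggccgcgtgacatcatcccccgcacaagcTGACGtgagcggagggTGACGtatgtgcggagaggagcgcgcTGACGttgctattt
Bdnf: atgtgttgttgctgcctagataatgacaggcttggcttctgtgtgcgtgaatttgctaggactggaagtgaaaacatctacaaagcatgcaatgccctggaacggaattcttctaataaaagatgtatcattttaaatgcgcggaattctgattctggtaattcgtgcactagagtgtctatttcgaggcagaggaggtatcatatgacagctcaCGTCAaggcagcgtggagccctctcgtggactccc
Npas4: cgttcgaCGTCAcgggaTGACGtcggaagt
The Homer1 window held 3 copies, 56 to 52, 40 to 36 and 14 to 10 bases before the start. Npas4 held 2 copies on opposite strands, 179 to 175 and 169 to 165 bases before the start, and Bdnf 1 copy, 35 to 31 bases before. None of the 3 windows held the full palindromic element TGACGTCA, which 1.55% of all windows held. The searched letters describe the sequence and say nothing of binding.

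Total counts per library ran from 11518606 to 26108954, with a median of 17924400. Counts were also present on genes that accumbens neurons are not known to transcribe. Their density over 1464 olfactory and vomeronasal receptor genes, extended over all gene spans, would make up 61.5% ± 14.0 of a library's counts (SD, n = 61). This density is called the background, and it ran from 0.057 CPM (counts relative to the library total, on the usual CPM scale) per kb in D1 SS replicate 1, a share of 7.46%, to 0.66 CPM per kb, a share of 86.3%. D1 SS replicate 1 also had the lowest TMM scaling factor, 0.388 against a next lowest of 0.811, and carried 6 markers of cortical excitatory neurons at 20.1 times the background, against 1.18 to 1.46 times in the other D1 SS libraries. For comparisons that use D1 SS, values without this library are also given. The receptor genes that define the sort differed in the direction of the labels, with Drd1 at a median of 27.1 times the background in D1 and 5.15 times in D2 libraries, and Drd2 at 2.39 and 24.2 times. Some markers of the other cell type also stood well above the background. Penk, a D2 neuron marker, had a median of 32.3 times in D1 and 99.2 times in D2 libraries. Chrm4, a D1 neuron marker, had medians of 31.6 times in D1 and 10.9 times in D2 libraries. Single markers of astrocytes, oligodendrocytes, microglia and endothelial cells had median levels between 0.791 and 2.16 times the background in either cell type. Among interneuron markers Sst, the somatostatin gene, stood apart at a median of 16.7 times the background in D1 and 7.70 times in D2 libraries. In neither cell type was a marker at 0 in any library.

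Per unit of gene length, 4 of the 5 genes stood above the background and Bdnf did not. Levels on this scale are multiples of the library's own background density over the receptor genes, which stand at 1. Length is the whole gene span with introns, 3488 bases for Arc, 52308 for Bdnf and 105495 for Homer1. Counts that fall in exons are spread thinner over a long span, so multiples of different genes are not directly comparable. Arc stood at a median of 7.80 times the background over D1 libraries and 6.07 times over D2 libraries. Npas4 followed at 5.92 and 4.74 times, Homer1 at 2.72 and 2.20 times, and Nptx2 at 2.42 and 2.11 times. Bdnf had medians of 1.11 and 1.09 times the background. Apart from D1 SS replicate 1, where Bdnf reached 5.43 times, its level ran from 0.893 to 1.30 times, close to what the receptor genes show. Across libraries Bdnf followed the background, with a Spearman correlation of 0.641 between its CPM and the background density over 32 D1 libraries and 0.881 over 29 D2 libraries. The other genes ran against it, from -0.498 for Arc in D2 to -0.889 for Homer1 in D1. Libraries and their total counts enter both measures, and the correlations are descriptions with no test. In bulk counts, fewer nuclei with a transcript and less transcript per nucleus cannot be told apart.

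**Figure D1:**
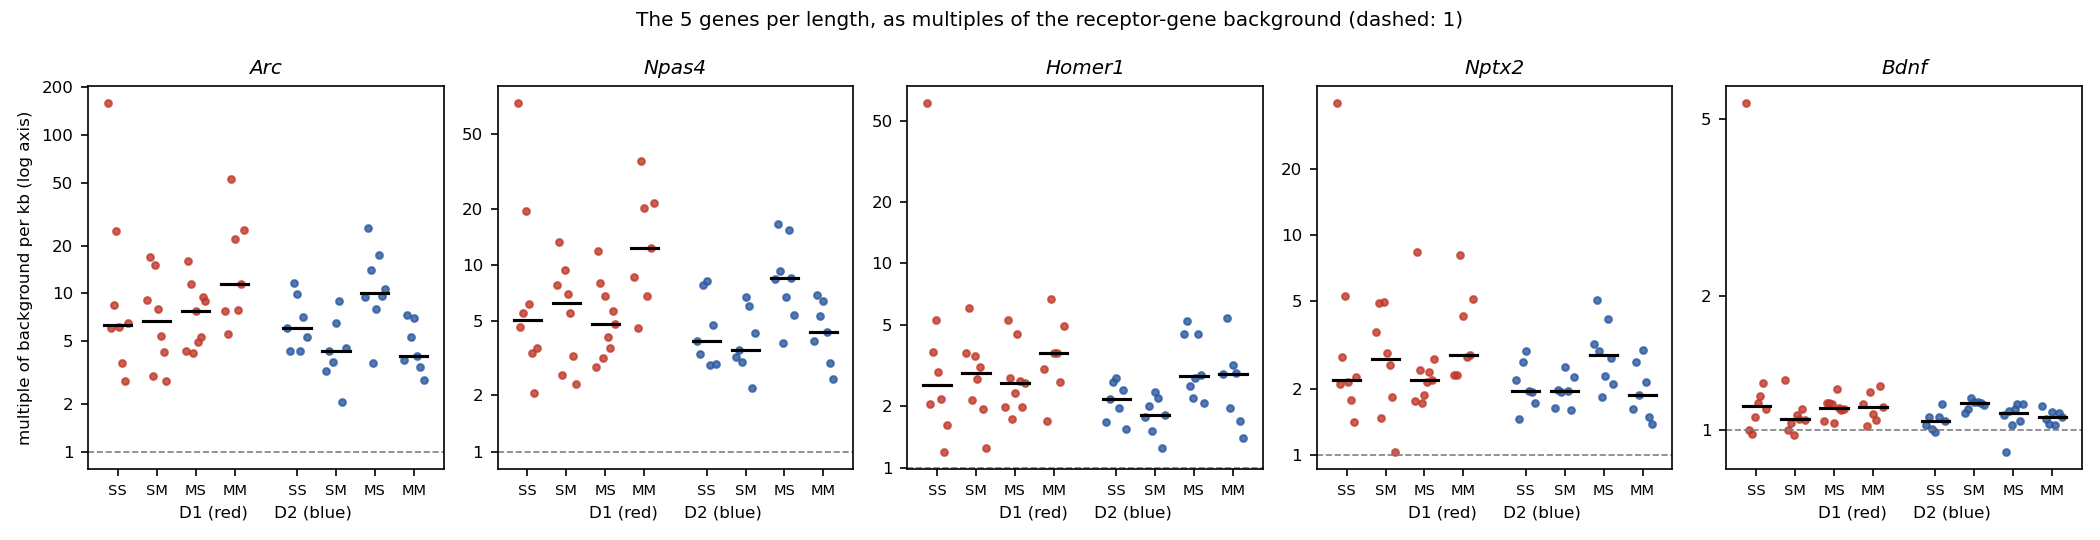
Each point is a library, placed by its cell type and treatment on the x axis and by the gene's level per kb as a multiple of the library's background on a log y axis, with bars at group medians and a dashed line at 1. Bdnf lies along the line apart from D1 SS replicate 1 at 5.43 times, while Arc reaches 52.7 times in D1 MM replicate 3 and 158 times in D1 SS replicate 1.

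Npas4 (ENSMUSG00000045903.9, chromosome 19, 4984355 to 4990316, minus strand, mm10) had between 125 and 1117 counts in a library. No other annotated gene overlaps its span of 5962 bases. Its level in D1 MM was 12.7 CPM in the lowest, 33.5 in the median and 79.0 in the highest library (TMM-scaled CPM here and below unless said otherwise), and in D1 MS it was 8.51, 13.7 and 24.2 CPM. In D2 nuclei the MS libraries were the high ones, at 10.6, 22.5 and 39.1 CPM, against 8.23, 11.99 and 15.8 CPM in MM. The D1 MM libraries thus reached higher than any MS library in 4 of 7 cases, whereas no D2 MM library passed the D2 MS median. D1 SS ran from 6.73 to 64.3 CPM, D1 SM from 7.75 to 24.7, D2 SS from 8.41 to 22.1 and D2 SM from 6.80 to 18.4. By mean the order was D1 MM (38.0 ± 23.4 CPM, SD, n = 7), D2 MS (24.1 ± 10.1, n = 8), D1 SS (22.4 ± 20.2, n = 8), D1 SM (15.7 ± 6.61, n = 8), D1 MS (15.2 ± 5.90, n = 9), D2 SS (13.5 ± 5.73, n = 7), D2 MM (12.5 ± 3.26, n = 7) and D2 SM (12.2 ± 4.27, n = 7). Without replicate 1 the D1 SS mean was 16.4 ± 11.95 CPM (n = 7).

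Arc (ENSMUSG00000022602.14, chromosome 15, 74669083 to 74672570, minus strand) is the shortest of the 5 genes, with a span of 3488 bases that no other annotated gene overlaps and 78 to 822 counts in a library. In D1 MM it measured 8.95 CPM in the lowest, 18.3 in the median and 67.7 in the highest library, and in D1 MS 7.35, 12.4 and 19.3 CPM. The 3 highest D1 MM libraries, replicates 3, 4 and 7 at 67.7, 33.4 and 32.7 CPM, lay above all D1 MS libraries, and the other 4 lay within their range. In D2 the order of the groups was the opposite, with MM at 5.59, 6.46 and 9.97 CPM and MS at 5.91, 16.7 and 35.6 CPM. All 7 D2 MM libraries lay under the D2 MS median, and MS replicate 4 was the only MS library within the MM range. D1 SS ran from 5.33 to 81.2 CPM, or to 31.9 without replicate 1, D1 SM from 5.51 to 20.8, D2 SS from 7.34 to 18.4 and D2 SM from 3.71 to 16.0. Group means ran in the order D1 MM (26.4 ± 20.7 CPM, SD, n = 7), D1 SS (21.2 ± 25.6, n = 8), D2 MS (18.8 ± 9.06, n = 8), D1 MS (12.7 ± 4.97, n = 9), D1 SM (11.5 ± 5.79, n = 8), D2 SS (11.3 ± 4.13, n = 7), D2 SM (8.18 ± 3.90, n = 7) and D2 MM (7.58 ± 1.92, n = 7). Without replicate 1 the D1 SS mean was 12.6 ± 8.94 CPM (n = 7), between D1 MS and D1 SM.

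**Figure D2:**
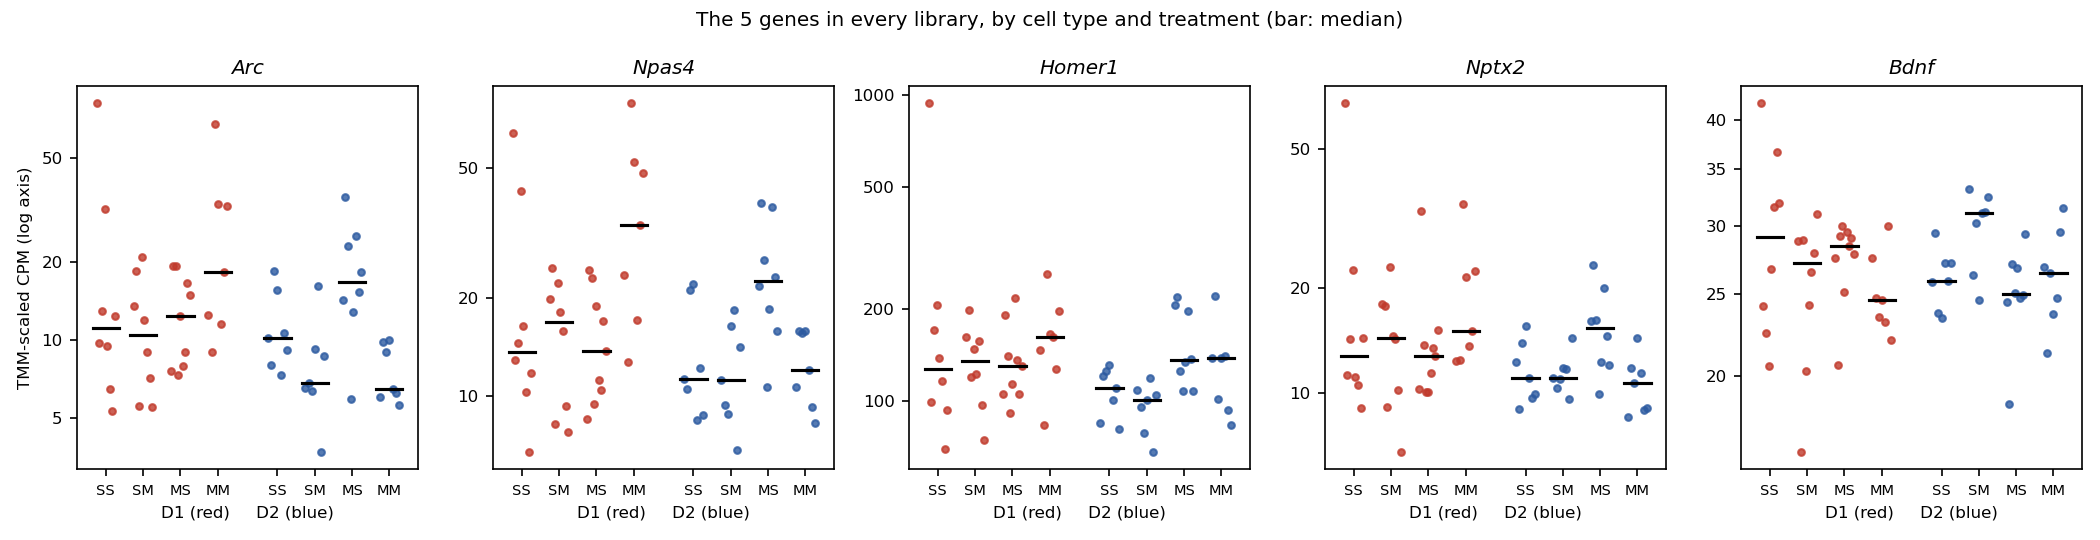
Each point is a library's TMM-scaled CPM on a log y axis, grouped on the x axis by cell type (D1 red, D2 blue) and treatment, with bars at group medians. Npas4 has its highest group median in D1 MM, 33.5 CPM, and Homer1 in D1 SS replicate 1 stands apart at 942 CPM.

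Homer1 (ENSMUSG00000007617.18, chromosome 13, 93299635 to 93405129, plus strand) had the most counts, 1029 to 9303 in a library, over a span of 105495 bases. Counts over the whole gene do not separate the activity-induced short form, Homer1a, from the long scaffold forms. The short gene models Gm47075 and Gm47088 lie inside it on the same strand, with median counts of 30 and 25. Homer1 in D1 libraries measured 82.9 to 259 CPM in MM (median 162), 90.9 to 218 in MS (median 130), 74.3 to 198 in SM (median 135) and 69.4 to 205 in SS without replicate 1 (median 116). Replicate 1 of D1 SS measured 942 CPM, far above the other 7. D2 libraries covered a narrower range, with 81.0 to 131 CPM in SS (median 110), 68.0 to 119 in SM (median 100.2), 108 to 218 in MS (median 136) and 83.0 to 219.5 in MM (median 138). The groups overlapped throughout, and 5 of 8 D2 MS libraries lay above every D2 SS library. By mean the order ran D1 SS (229 ± 291 CPM, SD, n = 8), D1 MM (163 ± 55.3, n = 7), D2 MS (154 ± 45.4, n = 8), D1 MS (137 ± 42.1, n = 9), D1 SM (135 ± 39.4, n = 8), D2 MM (130.3 ± 45.9, n = 7), D2 SS (107 ± 19.6, n = 7) and D2 SM (96.2 ± 17.7, n = 7). Without replicate 1 the D1 SS mean was 127 ± 47.3 CPM (n = 7).

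Nptx2 (ENSMUSG00000059991.7, chromosome 5, 144545902 to 144557478, plus strand) spans 11577 bases with no overlapping gene and had 122 to 665 counts. Its levels were 12.3 to 34.7 CPM in D1 MM (median 15.0), 10.1 to 33.1 in D1 MS (median 12.8), 6.79 to 22.9 in D1 SM (median 14.4) and 9.05 to 22.4 in D1 SS without replicate 1 (median 11.3). Replicate 1 of D1 SS measured 67.3 CPM. In D2 they were 8.55 to 14.4 CPM in MM (median 10.7), 9.91 to 23.3 in MS (median 15.3), 9.61 to 14.4 in SM (median 11.1) and 8.96 to 15.6 in SS (median 11.0). The pattern in D2 resembled that of Arc and Npas4: 7 of 8 MS libraries lay above the MM median. Means ran in the order D1 SS (20.0 ± 19.6 CPM, SD, n = 8; 13.3 ± 4.47 without replicate 1, n = 7), D1 MM (18.8 ± 8.11, n = 7), D2 MS (15.5 ± 4.40, n = 8), D1 MS (14.4 ± 7.23, n = 9), D1 SM (14.2 ± 5.33, n = 8), D2 SS (11.6 ± 2.42, n = 7), D2 SM (11.4 ± 1.52, n = 7) and D2 MM (10.7 ± 2.06, n = 7).

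Bdnf (ENSMUSG00000048482.14, chromosome 2, 109674700 to 109727007, plus strand) spans 52308 bases and had 265 to 764 counts. An antisense gene, Gm45346, shares 1892 bases with it, and whether the authors counted by strand is not given in the sources used here. Its level lay between 16.3 and 41.8 CPM in all 61 libraries, and its group means lay between 25.1 ± 2.77 CPM in D1 MM (SD, n = 7) and 29.9 ± 3.23 in D2 SM (n = 7). Between these stood D1 SS (29.5 ± 7.35, n = 8), D1 MS (27.5 ± 2.96, n = 9), D2 MM (26.3 ± 3.48, n = 7), D2 SS (26.1 ± 2.12, n = 7), D1 SM (25.5 ± 4.97, n = 8) and D2 MS (25.1 ± 3.13, n = 8). Because these levels are those of the background, differences of Bdnf between groups cannot be told apart from differences in background. For each of the 5 genes, groups next to each other in the order of means differed by less than the larger of their SDs.

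The study asked how a drug history shapes the response to a later challenge, and the comparison of MM with MS isolates the morphine challenge after a morphine history. Arc and Npas4 pointed in opposite directions in the cell types: their level in MM was 2.08 and 2.5 times that in MS in D1 nuclei, and 2.46 and 1.93 times lower than in MS in D2 nuclei. Neither gene was called in either cell type. Here a gene counts as called at an adjusted p under 0.05 in edgeR's quasi-likelihood test, adjusted over all genes tested. By that rule 0 of the 5 genes were called in each of 21 comparisons, limma voom also called none, and DESeq2's calls are given where it made any. In D1 the log2 difference was 1.06 ± 0.46 for Arc (SE, unadjusted p = 0.0286) and 1.32 ± 0.39 for Npas4 (unadjusted p = 0.00202, rank 30 of 41083), with adjusted p = 0.988 for both. Nptx2 stood at 0.38 ± 0.35, Homer1 at 0.24 ± 0.37 and Bdnf at -0.14 ± 0.14. In D2 Arc stood at -1.30 ± 0.30 (unadjusted p = 0.000199, rank 7 of 41125), Nptx2 at -0.53 ± 0.14 (unadjusted p = 0.000818, rank 21) and Npas4 at -0.95 ± 0.27 (unadjusted p = 0.00145, rank 38), with adjusted p = 0.973 for these. Homer1 was at -0.25 ± 0.18 and Bdnf at 0.07 ± 0.09. Thus 0 of 5 genes were called in D1, where 0% of all genes were, and 2 of 5 had an unadjusted p under 0.05, where 2.29% of all genes did. In D2 the counts were 0 of 5 called, against 0% of all genes, and 3 of 5 with an unadjusted p under 0.05, against 3.76%. With each MM or MS library left out in turn edgeR called none. With 1 library left out, Arc ranged from 0.62 to 1.21 and Npas4 from 1.04 to 1.48 in D1, both lowest without D1 MM replicate 3. In D2 Arc ranged from -1.43 to -1.11, Npas4 from -1.06 to -0.82 and Nptx2 from -0.61 to -0.43. In these edgeR fits the unadjusted p in D1 ran from 0.0149 to 0.18 for Arc and from 0.000718 to 0.0131 for Npas4. Arc in D1 therefore did not stay under 0.05 in all of them. The background share moved with these groups, averaging 53.9% in D1 MM and 63.4% in D1 MS, and 62.0% in D2 MM and 57.0% in D2 MS. With the background as a covariate, Arc stood at 0.69 ± 0.30 (SE) and Npas4 at 1.05 ± 0.28 in D1, and Arc at -1.16 ± 0.28, Npas4 at -0.79 ± 0.22 and Nptx2 at -0.45 ± 0.13 in D2, none of them called. The cortical markers stood at 1.28 to 2.28 times the background in D1 MM and 1.20 to 1.39 times in D1 MS, and at 1.16 to 1.28 times in D2 MM and 1.21 to 1.29 times in D2 MS. Their part in the differences was not tested.

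The next test asked whether the treatment difference was unequal between the cell types, not whether its signs were opposite. It took the D2 difference minus the D1 difference. For MM against MS this was -2.28 ± 0.51 for Npas4 (SE, unadjusted p = 3.35e-05, rank 3 of 42870, adjusted p = 0.479) and -2.36 ± 0.59 for Arc (unadjusted p = 0.000168, rank 6, adjusted p = 0.878) on the log2 scale. Nptx2 stood at -0.92 ± 0.41 (unadjusted p = 0.0269), Homer1 at -0.49 ± 0.44 and Bdnf at 0.20 ± 0.16. None of the 5 passed the adjusted test (0% of genes did), and 3 of 5 had an unadjusted p under 0.05, against 3.57% of all genes. A fit with each library's background density as a covariate called 1 of the 5, Npas4 at -1.86 ± 0.36 (adjusted p = 0.0494), among 0.00933% of all genes. With D1 SS replicate 1 also left out of that fit, Npas4 stood at -1.64 ± 0.34 (adjusted p = 0.154) and was not called. With each MM library left out in turn, Npas4 ranged from -2.43 to -2.00 and Arc from -2.51 to -1.94, and neither was called.

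**Figure D3:**
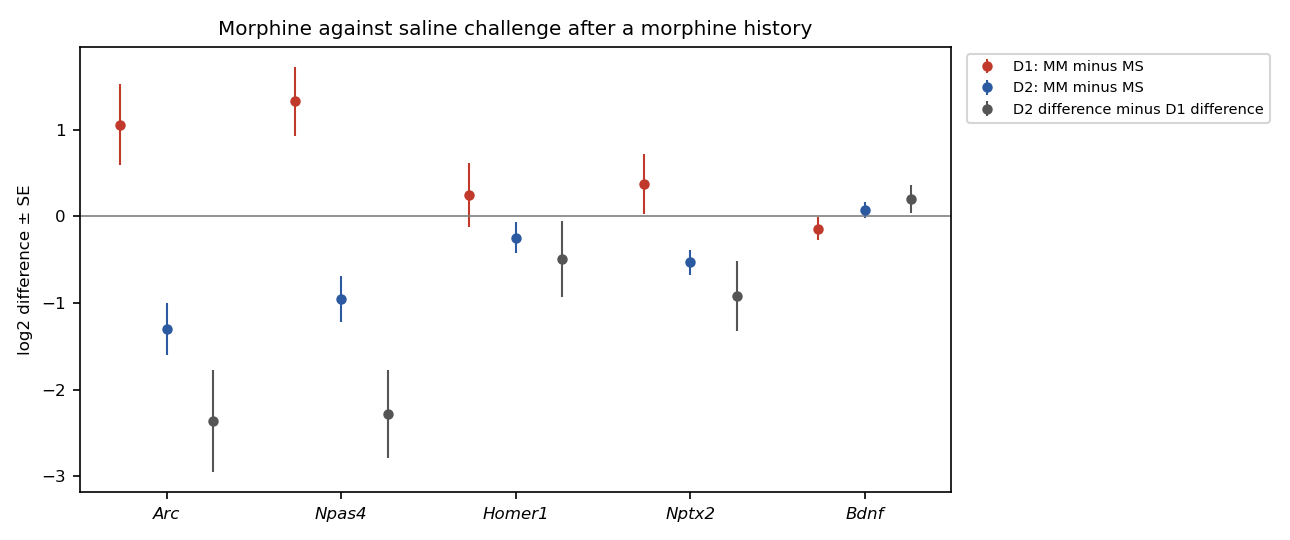
Points give the log2 difference of each gene between MM and MS in D1 nuclei (red) and D2 nuclei (blue), and the D2 difference minus the D1 difference (grey), with bars of 1 SE from edgeR. Npas4 lies at 1.32 in D1 and -0.95 in D2, and Bdnf lies within 0.20 of 0 in all 3.

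Between the cell types, the largest differences of Arc and Npas4 were those in MM. The level in D2 was 3.47 times lower for Arc and 3.05 times lower for Npas4 than in D1. For Arc the log2 difference was -1.80 ± 0.44 (SE, unadjusted p = 0.00015, adjusted p = 0.14), and for Npas4 -1.61 ± 0.38 (unadjusted p = 8.24e-05, adjusted p = 0.0929). Nptx2 stood at -0.82 ± 0.30 (adjusted p = 0.87), Homer1 at -0.32 ± 0.33 and Bdnf at 0.07 ± 0.12. All 7 D2 libraries lay under the D1 median for Arc, Npas4 and Nptx2, and 4, 4 and 6 of 7 lay under every D1 library. None of the 5 was called, against 0.056% of all genes, and 3 of 5 had an unadjusted p under 0.05, against 4.89%. D1 and D2 nuclei came from mice with different Cre transgenes. In every comparison of D2 with D1, cell type therefore cannot be told apart from mouse line.

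Whether Arc and Npas4 passed in that comparison turned on the fit. Without D1 SS replicate 1, a library of another treatment that enters through the shared spread, both were called at -1.80 ± 0.39 (adjusted p = 0.0209) and -1.61 ± 0.35 (adjusted p = 0.0243), among 0.17% of all genes. DESeq2's Wald test called both (adjusted p = 0.0454 and 0.035, 0.11% of genes). The background covariate called both at -1.47 ± 0.31 (adjusted p = 0.00932) and -1.35 ± 0.27 (adjusted p = 0.00516), among 0.275% of genes, and with D1 SS replicate 1 also left out at -1.36 ± 0.30 (adjusted p = 0.015) and -1.22 ± 0.25 (adjusted p = 0.00512), among 0.383%. Without D1 MM replicate 2 Npas4 was called at -1.76 ± 0.38 (adjusted p = 0.0411, 0.0603% of genes) and Arc was not. Limma voom called neither, and with D1 MM replicate 3 left out the differences were -1.37 ± 0.43 for Arc (adjusted p = 1) and -1.33 ± 0.38 for Npas4 (adjusted p = 0.609). With D1 SS replicate 1 and D1 MM replicate 3 both left out, Arc stood at -1.37 ± 0.37 (adjusted p = 0.254) and Npas4 at -1.32 ± 0.35 (adjusted p = 0.212). In the D1 MM group, replicate 3 had the highest Arc and Npas4 and also the highest cortical marker level, 2.28 times the background. The other D1 MM libraries ran from 1.28 to 1.65 times and the D2 MM libraries from 1.16 to 1.28 times, and Slc17a7, the vesicular glutamate transporter gene among these markers, measured 72.9 CPM in D1 MM replicate 3 and 8.62 to 11.1 CPM in D2 MM. Interneuron markers Sst and Npy were also lower in D2 than in D1 in MM at an unadjusted p under 0.05, Sst at -1.78 ± 0.42 (adjusted p = 0.0903) and Npy at -0.74 ± 0.17 (adjusted p = 0.0805), as 2 of 6 genes of their list, whose median was -0.088. The part of cortical and interneuron transcripts in these differences was not tested.

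Under the other treatments none of the 5 genes was called between the cell types. In SS, with all libraries, Homer1 was at -1.09 ± 0.32 (SE, adjusted p = 0.0983), Arc at -0.88 ± 0.42, Nptx2 at -0.77 ± 0.29, Npas4 at -0.72 ± 0.36 and Bdnf at -0.17 ± 0.12. These rest on D1 SS replicate 1: without it they were -0.25, -0.15, -0.20, -0.29 and -0.09. Of all genes 0.0467% were called, and 3 of the 5 had an unadjusted p under 0.05 (27.9% of genes). With that library in the fit, DESeq2 size factors in edgeR called Homer1 and Nptx2, where 19.2% of all genes were called, and DESeq2's Wald test called all but Bdnf, where 23.2% were. In SM the differences were -0.49 ± 0.32 for Homer1, -0.48 ± 0.42 for Arc, -0.37 ± 0.36 for Npas4, -0.31 ± 0.29 for Nptx2 and 0.23 ± 0.12 for Bdnf. In MS all 5 had the sign opposite to that in SM, with Npas4 at 0.67 ± 0.34, Arc at 0.57 ± 0.39, Homer1 at 0.17 ± 0.30 and Nptx2 at 0.11 ± 0.27, and Bdnf at -0.13 ± 0.11. None was called in SM (0.0303% of genes) or MS (0.0746%), and 0 of 5 had an unadjusted p under 0.05 in SM (2.16% of genes) or MS (2%). The signs depended on the fit. With the background as a covariate and D1 SS replicate 1 left out, Arc, Npas4 and Nptx2 changed sign in SM, and Homer1 and Nptx2 in MS.

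**Figure D4:**
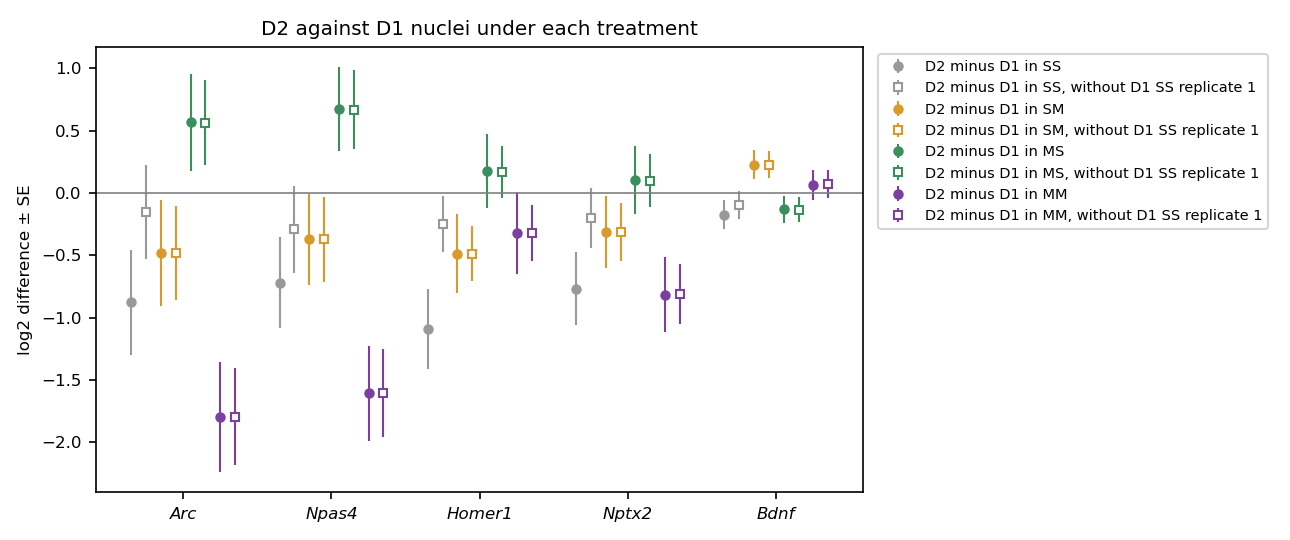
Points give the log2 difference of D2 from D1 nuclei for each gene under the 4 treatments, with bars of 1 SE, from all 61 libraries (filled circles) and without D1 SS replicate 1 (open squares). Leaving that library out moves the SS differences toward 0, Homer1 from -1.09 to -0.25, and leaves those in MM at -1.80 for Arc and -1.61 for Npas4.

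A morphine history with a saline challenge was compared with saline throughout. In D2 nuclei 4 of the 5 genes had a higher level in MS than in SS at an unadjusted p under 0.05: Npas4 by 0.83 ± 0.26 on the log2 scale (SE, adjusted p = 0.0713), Arc by 0.71 ± 0.29 (adjusted p = 0.0976), Homer1 by 0.51 ± 0.18 (adjusted p = 0.0745) and Nptx2 by 0.40 ± 0.14 (adjusted p = 0.0729). Bdnf stood at -0.07 ± 0.09. That share is read against 32% of all genes with such a p in this comparison, and edgeR called 0 of the 5 and 0% of all genes. DESeq2's Wald test called the same 4, where 16.6% of all genes were called, and limma voom called none. The background share averaged 57.0% in D2 MS and 67.0% in D2 SS, and with the background as a covariate the 4 differences were 0.49, 0.42, 0.18 and 0.22, with adjusted p from 0.355 to 0.49. In D1 nuclei MS against SS gave -0.72 ± 0.36 for Homer1, -0.71 ± 0.45 for Arc, -0.55 ± 0.38 for Npas4, -0.44 ± 0.33 for Nptx2 and -0.09 ± 0.13 for Bdnf, with 0 of 5 called (0% of genes) and 0 of 5 at an unadjusted p under 0.05 (2.68%). With D1 SS replicate 1 left out, Homer1, Arc and Nptx2 were at 0.10, 0.0079 and 0.12, and Npas4 at -0.12. The D2 difference minus the D1 difference was 1.44 ± 0.57 for Arc, 1.39 ± 0.50 for Npas4, 1.26 ± 0.44 for Homer1 and 0.87 ± 0.40 for Nptx2, and 0.05 ± 0.16 for Bdnf, again 4 of 5 at an unadjusted p under 0.05 (24.7% of genes) and 0 called (0%). DESeq2 called these 4, where 14.4% of all genes were called, and without D1 SS replicate 1 they were 0.72, 0.96, 0.42 and 0.30, and Bdnf -0.039, with none called.

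A first morphine injection, SM against SS, gave no call in either cell type. In D1 the differences were -0.86 ± 0.47 for Arc, -0.75 ± 0.37 for Homer1, -0.50 ± 0.39 for Npas4, -0.48 ± 0.34 for Nptx2 and -0.20 ± 0.13 for Bdnf, and without D1 SS replicate 1 these were -0.13, 0.085, -0.061, 0.093 and -0.12. In D2 they were -0.46 ± 0.31 for Arc, -0.16 ± 0.19 for Homer1, -0.14 ± 0.28 for Npas4, -0.02 ± 0.15 for Nptx2 and 0.20 ± 0.10 for Bdnf. No gene of the 5 was called or had an unadjusted p under 0.05, in D1 (0% and 1.87% of all genes) or in D2 (0% and 3.24%). The D2 difference minus the D1 difference was 0.40 ± 0.16 for Bdnf (SE, unadjusted p = 0.0169, adjusted p = 0.885), 0.60 ± 0.45 for Homer1, 0.46 ± 0.41 for Nptx2, 0.40 ± 0.59 for Arc and 0.35 ± 0.51 for Npas4. With D1 SS replicate 1 left out Bdnf stood at 0.32 and the other 4 changed sign, to -0.24, -0.11, -0.33 and -0.082. With all libraries Bdnf was the 1 of 5 with an unadjusted p under 0.05, against 2.46% of genes, and none was called (0%).

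For repeated morphine with a morphine challenge against saline throughout, D1 nuclei gave 0.78 ± 0.40 for Npas4 and 0.35 ± 0.47 for Arc, and without D1 SS replicate 1 these were 1.21 (unadjusted p = 0.00427) and 1.07 (unadjusted p = 0.0171), each with adjusted p = 0.665. Homer1 stood at -0.48 ± 0.38, Bdnf at -0.24 ± 0.14 and Nptx2 at -0.07 ± 0.36, and without that library Homer1 was at 0.35 and Nptx2 at 0.50. D1 MM replicate 3, the highest D1 MM library for Arc and Npas4, was kept in all fits of this comparison. D2 nuclei gave -0.59 ± 0.31 for Arc, 0.26 ± 0.19 for Homer1, -0.13 ± 0.15 for Nptx2, -0.12 ± 0.28 for Npas4 and 0.00031 ± 0.098 for Bdnf. The test called 0 of 5 in D1 (0% of genes) and in D2 (0%), with 0 of 5 at an unadjusted p under 0.05 in either (1.92% and 13.3% of genes). The D2 difference minus the D1 difference was -0.92 ± 0.60 for Arc, -0.89 ± 0.52 for Npas4, 0.77 ± 0.46 for Homer1, 0.24 ± 0.17 for Bdnf and -0.05 ± 0.42 for Nptx2. With D1 SS replicate 1 left out they were -1.64, -1.32, -0.071, 0.17 and -0.61, so that Homer1 changed sign and Arc and Npas4 lay farther from 0, again with none called. With all libraries none of these was called (0%) and 0 of 5 had an unadjusted p under 0.05 (6.74% of genes).

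Between the 2 histories at a morphine challenge, MM against SM, Arc and Npas4 had a higher level in D1 MM by 1.20 ± 0.48 and 1.27 ± 0.41 on the log2 scale (SE, unadjusted p = 0.0169 and 0.00374, adjusted p = 1), while Nptx2 stood at 0.41 ± 0.36, Homer1 at 0.27 ± 0.38 and Bdnf at -0.03 ± 0.14. For Npas4, 4 of 7 D1 MM libraries lay above every SM library, and for Arc 3 of 7. D1 MM replicate 3, the highest D1 MM library for both genes, was not left out of this comparison. In D2 the same differences were -0.13 ± 0.32 for Arc, 0.02 ± 0.28 for Npas4, -0.11 ± 0.15 for Nptx2 and -0.20 ± 0.10 for Bdnf, and Homer1 stood at 0.42 ± 0.19 (unadjusted p = 0.0341, adjusted p = 0.608). Under the alternative fits this Homer1 difference ranged from 0.12 to 0.45. The background share averaged 62.0% in D2 MM and 70.3% in D2 SM. D2 MM replicate 2, at 219.5 CPM of Homer1 against a next highest of 140, was not left out of this comparison. An unadjusted p under 0.05 was reached by 2 of 5 in D1 (1.34% of genes) and 1 of 5 in D2 (7.73%), with 0 of 5 called in D1 (0%) and D2 (0%). The D2 difference minus the D1 difference was -1.32 ± 0.60 for Arc, -1.24 ± 0.52 for Npas4, -0.50 ± 0.42 for Nptx2, 0.17 ± 0.45 for Homer1 and -0.16 ± 0.17 for Bdnf, with 2 of 5 at an unadjusted p under 0.05 (1.39% of genes) and none called (0%).

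The dependence of the challenge response on history was tested as MM minus MS against SM minus SS. In D1 it was 1.92 ± 0.66 for Arc (SE, unadjusted p = 0.00628) and 1.82 ± 0.56 for Npas4 (unadjusted p = 0.00263), both with adjusted p = 0.782. Without D1 SS replicate 1 these were 1.20 and 1.39 (unadjusted p = 0.0447 and 0.0128). Homer1 stood at 0.99 ± 0.52, or 0.17 without that library, Nptx2 at 0.85 ± 0.49, or 0.29, and Bdnf at 0.06 ± 0.19. Over all alternative fits Arc ranged from 0.83 to 2.27 and Npas4 from 1.05 to 2.09. D1 MM replicate 3 was not left out of this comparison. In D2 Arc stood at -0.84 ± 0.43, Npas4 at -0.81 ± 0.38, Nptx2 at -0.51 ± 0.21, Bdnf at -0.12 ± 0.14 and Homer1 at -0.09 ± 0.26. None of the 5 was called in D1 (0% of genes) or D2 (0%), and 2 of 5 had an unadjusted p under 0.05 in each, Arc and Npas4 in D1 (2.32% of genes) and Npas4 and Nptx2 in D2 (3.56%).

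From library to library Arc, Npas4 and Nptx2 varied most closely together. Arc and Npas4 had a Spearman correlation of 0.938 over 32 D1 libraries and 0.874 over 29 D2 libraries, Arc and Nptx2 of 0.891 and 0.808, and Npas4 and Nptx2 of 0.826 and 0.85. Homer1 had lower correlations with these 3, from 0.548 with Arc in D2 to 0.748 with Nptx2 in D1, and Bdnf ran against all 4, from -0.451 to -0.649. The libraries of a pair share their treatment, depth and background, so these values describe the libraries and carry no test. Compared with 18881 genes in both cell types, the profile most like that of Arc was Egr1, another immediate early transcription factor (0.957 in D1 and 0.905 in D2), followed by Npas4 and Nr4a1. Npas4 was most like Fosl2, Nr4a1 and Midn, with values from 0.891 to 0.929, and Nptx2 most like Egr1, Npas4 and Nr4a1, from 0.824 to 0.905. All the genes nearest to Arc and Nptx2 are immediate early genes. Homer1 was most like Kcnab1, a potassium channel subunit gene, Gabra4, a GABA receptor subunit gene, and Osbpl8, from 0.971 to 0.976, and Bdnf most like Il1rap, Astn2 and Cadps2, from 0.861 to 0.905.

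**Figure D5:**
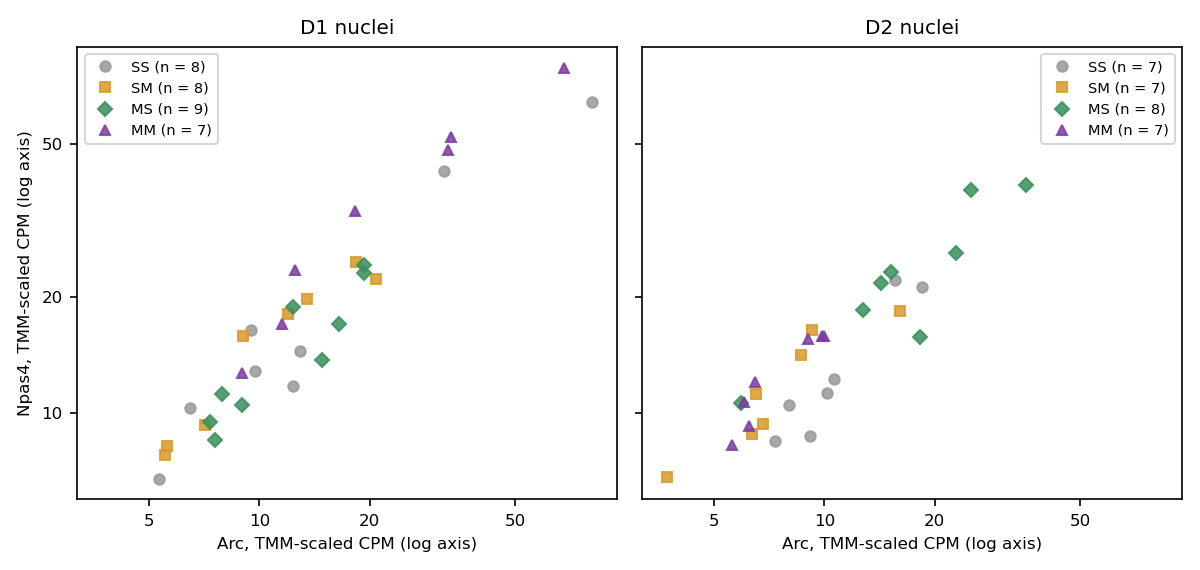
Each point is a library placed by its TMM-scaled CPM of Arc (x axis, log) and Npas4 (y axis, log), in D1 and D2 panels, with a symbol for each treatment. The highest D1 libraries are MM replicate 3, at 67.7 and 79.0 CPM, and SS replicate 1, at 81.2 and 64.3 CPM, and in D2 the 3 highest are MS libraries.

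Most other activity-induced genes pointed the same way as Arc and Npas4 in MM against MS. In D1 nuclei 39 of 40 listed genes had a higher level in MM, with a median log2 difference of 0.37 against -0.0072 for all genes, 48.5% of which were higher. Among the 40, 10 had an unadjusted p under 0.05, against 2.29% of all genes, and none was called (0% of all genes). The smallest p values belonged to the orphan nuclear receptor gene Nr4a3 (0.78 ± 0.21, SE), the AP-1 subunit gene Fosl2 (0.88 ± 0.25), the antiproliferative gene Btg2 (0.61 ± 0.18) and the zinc finger gene Egr2 (0.40 ± 0.12), all with adjusted p = 0.988. In D2 nuclei 34 of 40 had a lower level in MM, with a median of -0.25 against -0.0043 for all genes, and 18 had an unadjusted p under 0.05, against 3.76% of all genes, with none called (0%). Egr1 stood at -1.23 ± 0.26, Nr4a1 at -0.88 ± 0.21, the small GTPase gene Arl4d at -0.74 ± 0.18 and Rgs2, a regulator of G protein signalling, at -0.63 ± 0.15 (adjusted p = 0.973). In MM 37 of 40 were lower in D2 than in D1, with a median of -0.55 against -0.017 for all genes, 46.1% of which were higher, and 24 had an unadjusted p under 0.05, against 4.89% of all genes. There 1 of 40 was called, Nr4a3 at -0.96 ± 0.18 (adjusted p = 0.00432), against 0.0303% of all genes called lower, and this call was not rerun without single libraries. The background share averaged 53.9% in D1 MM and 62.0% in D2 MM. Summed over each list, median multiples of the background in D1 MM and D2 MM were 3.08 and 2.35 for the 40 genes. They were 2.23 and 1.69 for oligodendrocyte, 1.95 and 1.47 for interneuron and 1.41 and 1.21 for cortical markers. D2 neuron markers stood at 5.02 in D1 MM and 29.3 in D2 MM. The part of the background and of these markers in the D2-D1 difference was not tested. Median levels of the 40 ran from 0.683 to 26.5 times the background in D1 libraries and from 0.629 to 19.1 times in D2 libraries. The middle of these levels was 2.27 times in D1 and 2.01 times in D2. For list genes near the background, differences between groups cannot be told apart from differences in background. The 40 genes were listed with results of the same libraries known, so their common direction is a description. Markers of the sorted neurons pointed the same way in MM against MS. In D1 nuclei 6 of 6 D1 neuron markers (median 0.26), 5 of 5 D2 neuron markers (median 0.48), 5 of 5 oligodendrocyte markers (median 0.15) and 4 of 6 cortical markers (median 0.27) had a higher level in MM. In D2 nuclei 5 of 5 D2 neuron markers (median -0.41, farther from 0 than the median of the 40) and 4 of 6 D1 neuron markers (median -0.22) had a lower level. None of these markers was called, and the background share of the groups moved as given above for Arc and Npas4. Their part in the list's direction was not tested.

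None of the genes whose products bind or receive the 5 proteins was called in MM against MS. The list of 23 held Homer2 and Homer3, the Shank scaffolds, metabotropic and AMPA receptor subunits, the pentraxins Nptx1 and Nptxr, and the Bdnf receptor genes Ntrk2 and Ngfr. In D1, 21 of 23 had a higher level in MM than in MS, with a median of 0.23, where 48.5% of all genes were higher, and 0 of 23 had an unadjusted p under 0.05, where 2.29% of all genes did. In D2, 17 of 23 had a lower level, with a median of -0.10, where 48.8% of all genes were higher, and again 0 of 23 had such a p, against 3.76%. The neuron markers named above had the same directions. The smallest p values in D1 were those of Homer3 (0.17 ± 0.11, SE), Nptx1 (0.69 ± 0.48), Ntrk2 (0.53 ± 0.39) and Nptxr (0.48 ± 0.37), and in D2 those of Nptxr (-0.31 ± 0.19), Ntrk2 (-0.36 ± 0.22), Nptx1 (-0.27 ± 0.18) and Ngfr (0.14 ± 0.093). In D2 MS against SS, 20 of 23 had a higher level, with a median of 0.33, and 14 of them had an unadjusted p under 0.05, in the comparison where 32% of all genes did. Median levels of the 23 in D2 libraries ran from 1.07 to 6.56 times the background. The background share averaged 57.0% in D2 MS and 67.0% in D2 SS, and its part in these differences was not tested.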

How the data were processed

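Per the labels' protocols, sorted nuclei gave RNA for stranded low-input libraries of total RNA. The deposited tables hold the authors' raw counts and FPKM for each gene. Per the submitters' processing notes the authors used featureCounts, mm10 and DESeq2. Not given in the sources used here are the aligner, the annotation, tool versions and whether counting used strand. Counts were the basis of every test. FPKM served to recover gene lengths, which equalled the whole gene span in GENCODE M21 for 54281 of 54281 identifiers (relative tolerance 1e-06). That release held 54349 of the 55401 identifiers at the same version, or 55141 when versions are ignored.

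Tests were edgeR 4.0.16 quasi-likelihood fits in R 4.3.3 (TMM scaling, filterByExpr by group, robust, two-sided, Benjamini-Hochberg over all genes). D1 (41083 genes, 32 libraries) and D2 (41125 genes, 29 libraries) were fitted separately, and cell types were compared in a joint fit (42870 genes). Group levels are from the joint scaling. Alternatives were DESeq2 1.42.0 size factors and Wald tests, limma 3.58.1 voom, no filter, a replicate block, a background covariate, 1 joint fit and left-out libraries. The 5 genes and the lists were chosen with earlier results of these data known. The rule for named genes takes all 5 in each comparison, called list genes, the 4 list genes with the smallest p in MM against MS, and the 3 genes most like each of the 5 by the smaller of its 2 Spearman correlations. Among these, gene models, ribosomal and mitochondrial genes and those under a mean of 1 log2 CPM were left out. The separate D1 and D2 fits were also run on simulated counts, drawn around the mean profile of each cell type with differences added in MM. The simulation did not vary the background between libraries, so it cannot show how the fits behave when the background varies. Receptor genes of the nose gave the background because its density was seen to vary between libraries.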

Additional observations from a re-analysis of the deposited data

Results flagged for a closer look

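Within-group extremes were looked for in 40 sets, 5 genes in 8 groups, by the gap of the highest or lowest library to its neighbour relative to the group's range (Dixon's 95% limit), and 7 were found. For independent, normally distributed values this limit marks about 1 in 20 groups. The values here were CPM without logs and the 5 genes share libraries, so the 7 cannot be read against that share. D1 SS replicate 1 accounts for 3 of them, with Arc at 81.2 CPM against a next highest of 31.9, Homer1 at 941.8 CPM against 205, and Nptx2 at 67.3 CPM against 22.4. Arc in D1 MM replicate 3 stood at 67.7 CPM against a next highest of 33.4. Nptx2 in D1 MS replicate 2 stood at 33.1 CPM against 15.1. Homer1 in D2 MM replicate 2 stood at 219.5 CPM against 140. Bdnf in D2 MS replicate 2 was the lowest of its group at 18.6 CPM, against 24.5 for the next.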

How the results depend on the processing

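Of 1145 log2 differences of the 5 genes under alternatives, 1051 kept their direction and their side of the threshold, 26 were newly called and 68 changed sign, none of them called under either fit. The main fits called 0 of the 5 genes in each of 21 comparisons. DESeq2 size factors called 2 in D2-D1 in SS. DESeq2's Wald test called 4 in D2-D1 in SS, 4 in D2 MS-SS, 4 in the cell type difference of MS-SS and 2 in D2-D1 in MM. The background covariate called 2 in D2-D1 in MM and 1 in the cell type difference of MM-MS, and 2 in D2-D1 in MM with D1 SS replicate 1 also left out. Leaving out D1 SS replicate 1 alone called 2 in D2-D1 in MM, and leaving out each MM library there called 0 to 1. No filter, limma voom and the joint fit changed no call. The covariate without D1 SS replicate 1, the MM and MS libraries left out in turn and the pair of libraries left out were chosen after seeing the data. Where signs changed, the cause was not tested.

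The replicate numbers were not taken to pair libraries: same-numbered libraries had a mean correlation of -0.0217 in D1 and 0.0353 in D2, against 0.0224 and -0.0063 for other pairs, and 6 of 32 and 5 of 29 libraries correlated best with their own number. The replicate block called 2 of the 5 genes, Npas4 and Homer1, in D2 MS-SS (8595 of 41125 genes against 0 without it) and changed no other call. The replicate block gave Nptx2 0.087 in D1 MM-SS, and Bdnf 0.015 in D1 MM-SM, and Bdnf -0.013 in D2 MM-SS, and Npas4 -0.013 in D2 MM-SM. The replicate block also gave Bdnf -0.0067 in the cell type difference of MS-SS.

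The values that changed sign, as log2 differences, were these. DESeq2 size factors gave Nptx2 0.24 in the cell type difference of MM-SS. DESeq2's Wald test gave Homer1 0.07 in D1 SM-SS, and Homer1 0.088 in D1 MS-SS, and Homer1 0.34 in D1 MM-SS, and Nptx2 0.27 in the cell type difference of MM-SS. Limma voom gave Nptx2 0.18 in D1 MM-SS, and Bdnf -0.0073 in D2 MM-SS, and Arc -0.14 in the cell type difference of SM-SS. Leaving out D1 SS replicate 1 gave Homer1 0.085 and Nptx2 0.093 in D1 SM-SS, and Arc 0.0079, Homer1 0.10 and Nptx2 0.12 in D1 MS-SS, and Homer1 0.35 and Nptx2 0.50 in D1 MM-SS, and Bdnf -0.014 in D1 history by challenge. Leaving out D1 SS replicate 1 also gave Arc -0.33, Npas4 -0.082, Homer1 -0.24 and Nptx2 -0.11 in the cell type difference of SM-SS, and Bdnf -0.039 in the cell type difference of MS-SS, and Homer1 -0.071 in the cell type difference of MM-SS. The background covariate gave Homer1 0.011 and Nptx2 0.026 in D1 SM-SS, and Arc 0.16, Npas4 0.044, Homer1 0.13 and Nptx2 0.12 in D1 MS-SS, and Homer1 0.12 and Nptx2 0.30 in D1 MM-SS, and Homer1 -0.010 in D1 MM-MS. The background covariate also gave Homer1 -0.022 in D1 history by challenge, and Nptx2 0.029 in D2 SM-SS, and Bdnf 0.092 in D2 MS-SS, and Bdnf -0.0063 in D2 MM-MS. The background covariate also gave Npas4 -0.25 in D2 MM-SM, and Arc 0.12 and Npas4 0.0044 in D2-D1 in SS, and Arc -0.21, Npas4 -0.048 and Homer1 -0.097 in the cell type difference of SM-SS, and Homer1 -0.049 in the cell type difference of MM-SS. The covariate without D1 SS replicate 1 gave Arc 0.074, Homer1 0.10, Bdnf 0.021 and Nptx2 0.031 in D1 MS-SS, and Homer1 0.056, Bdnf 0.029 and Nptx2 0.13 in D1 MM-SS, and Homer1 -0.047 and Bdnf 0.0078 in D1 MM-MS, and Bdnf 0.079 in D1 MM-SM. The covariate without D1 SS replicate 1 also gave Homer1 -0.022 in D1 history by challenge, and Arc 0.066 in D2-D1 in SS, and Arc 0.034, Npas4 0.11 and Nptx2 0.030 in D2-D1 in SM, and Homer1 -0.025 and Nptx2 -0.018 in D2-D1 in MS. The covariate without D1 SS replicate 1 also gave Bdnf -0.051 in D2-D1 in MM, and Arc -0.032 and Homer1 -0.036 in the cell type difference of SM-SS, and Bdnf -0.0040 in the cell type difference of MM-MS. Arc, Npas4 and Nptx2 had as few as 78, 125 and 122 counts in a library, and the part of depth in their spread was not tested. Bdnf is limited by its closeness to the background.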
